A study of Homo sapiens with 17 samples.

Results

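The regions described here are stretches of the human genome that carried monomethylation of lysine 4 of histone H3 (H3K4me1) in both naive and primed pluripotent stem cells (PSCs). They were chosen by the H3K4me1 values themselves: a window of 500 bp was taken where the log2 of its reads, scaled to the depth of the library (log2 RPM), was above 1 in each of 5 libraries, and windows that touch were merged into domains. Of 5750013 autosomal windows 6068 met the limit, and they formed 4568 domains covering 3.03 Mb. The 5 libraries were made by CUT&RUN, in which an antibody against the mark guides a nuclease to cut the chromatin around it, from the established embryonic stem cell line H9 NK2. Naive PSCs (2 libraries) were kept in a medium with PD0325901, CHIR99021, LIF and the protein kinase C inhibitor Go6983 on Matrigel, and primed PSCs (3 libraries) in TeSR-E8 medium on Vitronectin. All cells grew at 5% oxygen, and with a single line the states are compared in 1 genetic background. Promoter contacts came from Promoter Capture Hi-C (PCHi-C) of the same line, in which fragments cut by HindIII and ligated to a nearby fragment are captured with baits at promoters. The 2 PCHi-C replicates of each state were combined by the authors into 1 list of contacts with a CHiCAGO score of at least 5.

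H3K4me1 is laid down mainly by the enzymes KMT2C and KMT2D and marks the nucleosomes of enhancers, whether active or waiting to be used, and the flanks of active promoters, whose centre carries trimethylation instead. Naive PSCs resemble the epiblast before implantation and primed PSCs a later epiblast, and both express *POU5F1*, *SOX2* and *NANOG*. A domain marked in both states therefore is a site where the mark was found on either side of this transition.

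The depth implied by the steps between values was 6743808 to 26596514 reads per library, so that the limit corresponded to 13.5 reads in naive library 2 and 53.2 reads in primed library 3. At 8 genes that mark naive PSCs, the highest window within 2 kb of the start passed the limit for 7 in both naive libraries and for 2, 2 and 1 in the primed libraries. For 8 primed markers the counts were 3 and 2 in the naive and 5, 4 and 3 in the primed libraries, and for 7 genes of both states 5 and 5 against 6, 3 and 3. Of 8 genes of differentiated cells, such as *GATA4* and *PAX6*, 4 passed in each naive library and 7, 4 and 3 in the primed ones. More of the naive markers thus passed in the naive than in the primed libraries, and the counts of primed and differentiation markers overlapped between the states. Of all autosomal windows 1.51% and 1.32% passed in the naive and 2.22%, 0.826% and 1.02% in the primed libraries. The share of all protein-coding starts that pass by the rule used for the markers was not counted. In these bulk libraries, fewer marked cells and less mark per cell cannot be told apart.

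The 10 stretches of the reference genome below are shown because the results turn on their domains. They come from the 2 broadest domains, from far-lying domains in contact with a promoter in both states, and from the domains beside genes of the pluripotency network. In those ending in CpG the capitals mark CG pairs, the site of DNA methylation. In those ending in octamer they mark a match to ATTTGCAT, the octamer that OCT4 (the protein of *POU5F1*) and other POU factors recognise, in either orientation.
TMEM131L intron, chr4:153486601-153486900 of GRCh38, plus strand, CpG: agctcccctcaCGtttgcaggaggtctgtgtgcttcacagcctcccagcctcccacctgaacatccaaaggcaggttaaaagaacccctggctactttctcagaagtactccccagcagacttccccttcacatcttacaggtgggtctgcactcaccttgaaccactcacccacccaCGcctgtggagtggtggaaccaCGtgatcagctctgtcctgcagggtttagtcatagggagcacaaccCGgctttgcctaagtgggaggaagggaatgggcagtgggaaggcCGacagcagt
SSBP3 intron, chr1:54376631-54376930 of GRCh38, plus strand, octamer: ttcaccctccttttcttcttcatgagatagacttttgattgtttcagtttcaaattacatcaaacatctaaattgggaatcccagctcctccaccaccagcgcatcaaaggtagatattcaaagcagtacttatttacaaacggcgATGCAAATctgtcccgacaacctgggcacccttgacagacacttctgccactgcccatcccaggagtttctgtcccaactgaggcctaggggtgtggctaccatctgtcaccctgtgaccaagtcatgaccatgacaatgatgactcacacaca
KIRREL1 distal, chr1:158104101-158104400 of GRCh38, plus strand, CpG: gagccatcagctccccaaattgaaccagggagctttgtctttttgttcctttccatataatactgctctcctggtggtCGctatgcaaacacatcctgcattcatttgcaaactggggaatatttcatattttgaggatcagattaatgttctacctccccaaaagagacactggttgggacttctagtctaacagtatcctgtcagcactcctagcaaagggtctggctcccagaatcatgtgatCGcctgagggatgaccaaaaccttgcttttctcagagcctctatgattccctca
PLEKHG6 intron, chr12:6323101-6323400 of GRCh38, plus strand, CpG: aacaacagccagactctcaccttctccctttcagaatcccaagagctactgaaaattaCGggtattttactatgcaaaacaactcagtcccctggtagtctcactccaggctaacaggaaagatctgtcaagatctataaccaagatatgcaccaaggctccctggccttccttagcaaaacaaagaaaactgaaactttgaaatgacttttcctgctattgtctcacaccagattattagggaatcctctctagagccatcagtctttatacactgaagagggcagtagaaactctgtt
POU5F1 upstream, chr6:31172101-31172400 of GRCh38, plus strand, CpG: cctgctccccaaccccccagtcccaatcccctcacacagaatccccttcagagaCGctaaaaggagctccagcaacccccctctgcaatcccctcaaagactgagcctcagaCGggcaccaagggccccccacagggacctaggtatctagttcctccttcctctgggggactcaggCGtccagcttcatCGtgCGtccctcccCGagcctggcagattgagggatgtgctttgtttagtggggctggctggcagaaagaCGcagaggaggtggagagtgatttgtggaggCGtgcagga
SOX2 downstream, chr3:181720101-181720400 of GRCh38, plus strand, CpG: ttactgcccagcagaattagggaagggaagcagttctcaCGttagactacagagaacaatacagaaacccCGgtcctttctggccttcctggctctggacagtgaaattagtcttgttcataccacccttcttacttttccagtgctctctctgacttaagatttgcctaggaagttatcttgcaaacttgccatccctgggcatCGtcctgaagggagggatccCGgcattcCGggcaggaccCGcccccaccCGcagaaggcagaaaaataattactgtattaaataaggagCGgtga
NANOG upstream, chr12:7787601-7787793 of GRCh38, plus strand, CpG: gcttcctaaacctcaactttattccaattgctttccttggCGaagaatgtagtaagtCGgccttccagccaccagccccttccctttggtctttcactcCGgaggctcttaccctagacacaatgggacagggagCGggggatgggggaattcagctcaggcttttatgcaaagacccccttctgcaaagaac
SMAD3 promoter, chr15:67165782-67166018 of GRCh38, plus strand, octamer: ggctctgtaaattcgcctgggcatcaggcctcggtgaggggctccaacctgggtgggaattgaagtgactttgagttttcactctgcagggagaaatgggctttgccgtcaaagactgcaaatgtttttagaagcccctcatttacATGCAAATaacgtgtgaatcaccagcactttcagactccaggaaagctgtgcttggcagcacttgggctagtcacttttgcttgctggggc
TRIM71 intron, chr3:32842601-32842900 of GRCh38, plus strand, CpG: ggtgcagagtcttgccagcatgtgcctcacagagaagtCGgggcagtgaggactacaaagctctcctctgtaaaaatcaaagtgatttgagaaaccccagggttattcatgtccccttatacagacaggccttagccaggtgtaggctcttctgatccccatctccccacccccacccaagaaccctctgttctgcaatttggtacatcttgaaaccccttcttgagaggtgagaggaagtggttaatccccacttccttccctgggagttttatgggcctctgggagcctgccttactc
ZIC2 distal, chr13:99687101-99687400 of GRCh38, plus strand, CpG: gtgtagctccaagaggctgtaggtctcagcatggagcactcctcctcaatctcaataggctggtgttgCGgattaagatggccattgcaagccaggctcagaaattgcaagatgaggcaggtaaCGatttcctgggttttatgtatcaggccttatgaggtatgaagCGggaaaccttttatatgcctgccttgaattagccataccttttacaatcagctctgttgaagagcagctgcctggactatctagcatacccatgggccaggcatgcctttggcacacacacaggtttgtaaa
The fourth lies in an intron of *PLEKHG6* and was joined to the *GAPDH* promoter. Between 42.3% and 60.3% of the bases of these stretches were G or C, and the number of CG pairs ranged from 1 to 8. The *NANOG* and *SMAD3* stretches stop short of an annotated untranslated exon.

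Most domains were narrow. Of the 4568 domains, 3413 (74.7%) were a single window, 926 (20.3%) were 1000 bp wide, 154 were 1500 bp, 46 were 2000 bp, 19 were 2500 bp, 8 were 3000 bp and 2 were 3500 bp. Only 75 domains (1.64%) reached 2 kb, against 3.16% of 18571 domains marked in both naive and no primed library and 2.47% of 9403 domains marked in every primed and no naive library. These other domains also reached further, to 6000 bp and 5000 bp. A domain had to pass in 5 libraries here but in every library of just 1 state for the other sets, so the widths are not on equal terms. A gap of a single window made up 239 of 4546 gaps between neighbours (5.26%), and joining across it raised the share of domains of 2 kb or more to 4.5%. Left without primed library 2 the rule would give 3.55%, and without naive library 2 it would give 2.70%. Domains also clustered on a larger scale, with 26.2% of gaps within 10 kb and a median gap of 88000 bp.

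The mark fell away on both sides of the domains in each library. The mean over the 4568 domains was 1.69 and 1.47 log2 RPM in naive libraries 1 and 2 and 1.82, 1.46 and 1.57 in primed libraries 1 to 3 at the middle window. At 2 kb towards lower coordinates it was between -0.14 and -0.52, and at 10 kb between -0.92 and -1.32. The median over all sequenced autosomal windows was between -3.45 and -2.73 log2 RPM, below the mean at 10 kb in every library.

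**Figure D1:**
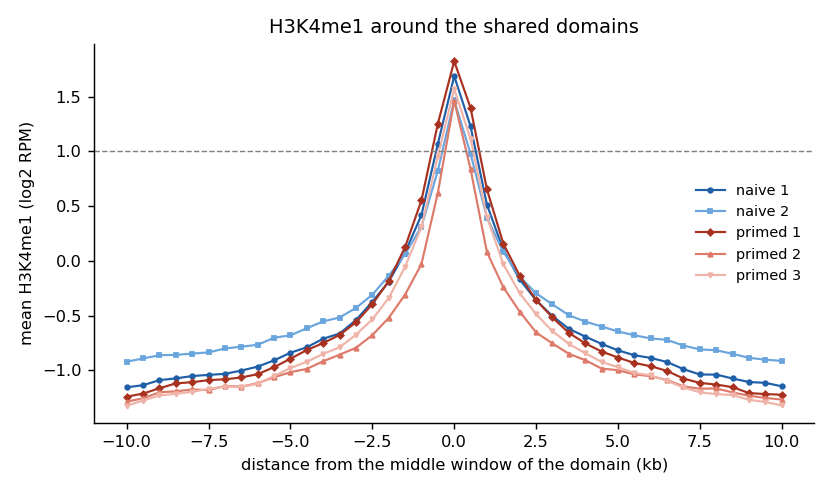
Mean H3K4me1 (log2 RPM, y axis) in 500 bp windows up to 10 kb from the middle window of the 4568 shared domains (x axis, kb), with 1 line for each of the 2 naive and 3 primed libraries. The dashed line is the limit of 1 that chose the windows, and the lines of both states fall from between 1.46 and 1.82 in the middle to between -0.92 and -1.32 at 10 kb towards lower coordinates.

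The broadest domains lay mostly inside genes. Of the 11 broadest, 6 were in an intron, 2 overlapped an exon, 2 a promoter (an annotated transcript start and the 1000 bp before it) and 1 was intergenic. Shared domains of every width were placed in much the same way, with 56.2% in an intron, 7.49% at an exon, 15.8% at a promoter and 20.5% intergenic. The broadest, chr4:153486001-153489500, lies in an intron of *TMEM131L*, 21.4 kb downstream of its start, and stood at 2.00 and 1.64 log2 RPM in the naive and 1.63, 1.82 and 2.00 in the primed libraries. The other domain of 3500 bp, chr1:54376001-54379500, lies in an intron of *SSBP3*, a cofactor of LIM-homeodomain transcription factors, at 1.89 and 1.48 in the naive and 1.98, 1.5 and 1.92 in the primed libraries. The libraries of the states overlapped at both. The former had no contact and the latter 1 in naive PSCs, with a bait at no protein-coding gene.

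Other broad domains sat at genes of varied function. At *SMAD7*, an inhibitor of TGF-beta and NODAL signalling, chr18:48931501-48934500 covers an internal promoter 18.0 kb downstream of the main start, with 1.62 and 1.67 log2 RPM in the naive and 1.91, 1.2 and 1.74 in the primed libraries. *SMAD7* had 6 domains within 10 kb. In an intron of *BCL2L1*, which encodes the survival protein BCL-XL, chr20:31711501-31714500 stood at 1.69 and 1.76 against 2.14, 1.58 and 2.04. In an intron of *DNMT3A*, a de novo DNA methyltransferase, chr2:25258001-25260500 stood at 1.93 and 1.44 against 2.15, 1.61 and 2.08. Values of both states overlapped at these 3 as well. The remaining ones lie in *TSPAN14*, *NDST1*, *NAV1*, *WBP1L* and *FAM178B* (the last 5.42 kb upstream of *SEMA4C*) and in intergenic DNA 25.3 kb from *SMIM42*. At *NAV1*, a gene of the neuronal cytoskeleton, the naive libraries (1.44 and 1.38) were below the primed (1.88, 2.00 and 2.00), and at *TSPAN14* (1.84 and 1.52 against 2.35, 1.85 and 2.20) and *NDST1* (1.73 and 1.58 against 1.86, 1.83 and 2.04) the naive were also below. Among all 4568 domains, the libraries of the states did not overlap at 714 with primed higher and at 503 with naive higher. These values chose the domains and carry no test.

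**Figure D2:**
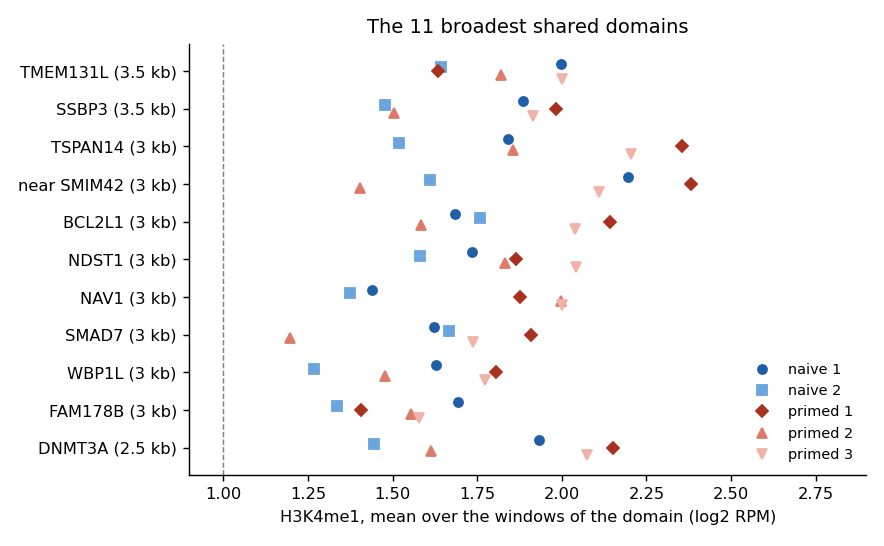
H3K4me1 of the 11 broadest domains (y axis, named by the gene they overlap or the nearest gene, with their width) as the mean over their windows (x axis, log2 RPM), with 1 symbol for each of the 5 libraries. The dashed line is the limit of 1, and naive and primed symbols overlap at 8 of the 11 domains. Among all 4568 domains, the states did not overlap at 714 with primed higher and at 503 with naive higher.

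The levels of all shared domains are given as a description, since the rule removed every window that was low in either state and so held the states together. The median domain stood at 1.66 and 1.42 log2 RPM in the naive and at 1.81, 1.41 and 1.55 in the primed libraries. The difference of the state means (naive minus primed) had a median of -0.05, with 3855 domains (84.4%) within 0.5 and 22 more than 1 apart, of which 8 were higher in naive and 14 in primed PSCs. The widest difference towards primed PSCs was in an intron of *CTDSP2* (chr12:57838001-57838500, 1.26 and 1.33 against 2.55, 2.63 and 2.70), and an intron of *SOX13*, a SOX transcription factor, followed (chr1:204094001-204094500, 1.14 and 1.25 against 2.78, 2.31 and 2.46). Towards naive PSCs, an intergenic window 29.0 kb from *IER5* (chr1:181117501-181118000, 3.03 and 2.46 against 1.38, 1.66 and 1.42) differed most. These loci were picked after their values were seen.

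Across the 6068 windows the values correlated at r = 0.43 between the naive libraries and at 0.20 to 0.60 between primed libraries, and at 0.09 to 0.24 between states. The windows share the limit that cut off their low values and the libraries differ in depth, so these are descriptions of a truncated range. The lowest of the 5 values was that of primed library 2 in 35.0% of shared windows, naive library 2 in 30.7%, primed library 3 in 15.4%, naive library 1 in 12.9% and primed library 1 in 5.97%. The shallowest libraries were naive library 2 (6743808 reads) and primed library 2 (7892016 reads), and primed library 1 had 8853586 reads. The part of depth in the order of lowest values was not tested. Just inside the limit, with a lowest library between 1.0 and 1.1, were 1776 windows, and just outside, between 0.9 and 1.0, were 2403. Without primed library 2 there would be 7541 domains. Of the 4568 domains 2 had a mean over 3, on chromosome 21 at chr21:8234001-8235000 (5.19 and 5.73 against 4.46, 4.41 and 4.27) and in intergenic DNA of chromosome 3 at chr3:93470501-93471000 (5.35 and 3.89 against 1.38, 4.79 and 5.74). Neither had a contact. The study's methods say that coverage outliers were excluded for quantitation, but not whether this was done for the deposited windows. Whether the signal of these 2 domains is anomalous was not tested.

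The domains sat nearer to genes than windows in general. Of the shared windows 14.4% (95% Wilson interval 13.5 to 15.3) overlapped a promoter, against 5.82% of all sequenced autosomal windows, 9.01% (8.68 to 9.36) of naive-only and 11.7% (11.1 to 12.2) of primed-only windows. Introns held 58.2% (56.9 to 59.4) against 49.8% of all, and intergenic DNA 20.2% (19.2 to 21.2) against 37.0%. Primed-only windows were in introns more often still, at 62.1% (61.3 to 63.0), and 18.6% of them were intergenic. Naive-only windows stood at 52.8% and 30.2%. Exons held 7.22% (6.59 to 7.90) against 7.39%, an interval that includes the share of all windows. The median distance to the nearest protein-coding start was 28698 bp, close to that of naive-only windows (27406 bp), and shorter than for primed-only (42724 bp) and all windows (87538 bp). These intervals and those below cover counting error only, and windows of 1 domain are not independent.

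Shared windows lay downstream of the nearest start more often than upstream. Of those 2 to 5 kb away 33.0% were upstream, and of those 10 to 50 kb away 32.2%, against 46.3% and 42.6% of all windows. Naive-only windows at these distances were upstream in 43.8% and 43.6%, primed-only windows in 34.5% and 29.0%. Within 1 kb the order turned, with 67.3% of shared windows upstream, against 71.1% of naive-only, 55.7% of primed-only and 47.9% of all windows. Around the 19111 protein-coding starts, the number with a shared window was 59 at 500 bp upstream, 19 at 500 bp downstream and 72 at 4 kb downstream. The count at 500 bp downstream was the lowest within 10 kb on either side, followed by 24 at 7.5 kb upstream and 25 at 1 kb downstream.

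**Figure D3:**
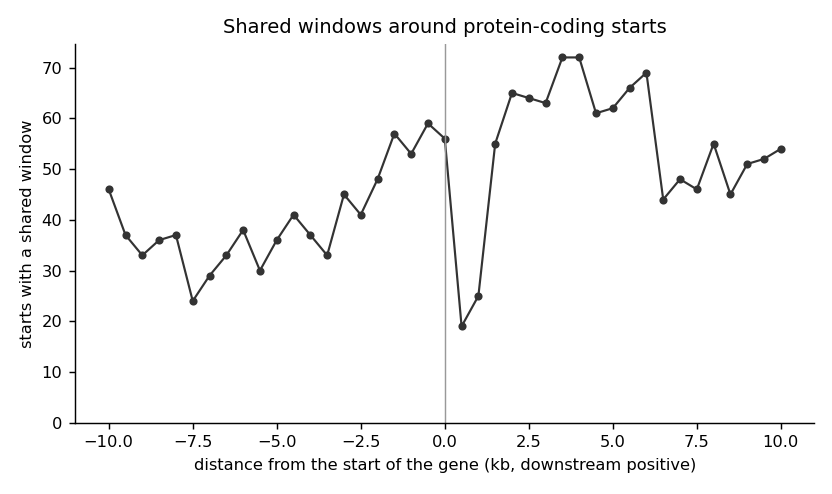
Number of protein-coding starts, of 19111, with a shared window (y axis) at each distance from the start (x axis, kb, downstream positive), in steps of 500 bp. The number drops from 59 at 500 bp upstream to 19 at 500 bp downstream and reaches 72 at 3.5 and 4 kb downstream.

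Shared windows were rich in G and C, with a median of 48.8% against 40% of all autosomal windows and 45.6% of naive-only windows, while primed-only windows had the same 48.8%. Windows with a CpG island's composition had over 50% G and C and a ratio of observed to expected CG pairs over 0.6. They made up 1.93% (1.61 to 2.31) of shared windows against 1.19% of all. Primed-only windows stood at 1.81% (1.59 to 2.05), an interval that overlaps that of shared windows, and naive-only windows at 1.03%. The octamer ATTTGCAT, searched on both strands, was present in 7.32% (6.69 to 8.0) of shared windows, against 5.03% (4.78 to 5.30) of naive-only, 4.88% (4.52 to 5.26) of primed-only and 4.97% of all windows. The part of base composition in these shares was not tested. In the *SSBP3* and *SMAD3* stretches printed above it stands as its reverse complement.

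Other motifs were also counted. The TFAP2 core GCCNNNGGC was in 20.1% (19.1 to 21.1) of shared, 15.3% of naive-only, 18.0% (17.4 to 18.7) of primed-only and 7.22% of all windows. The KLF core GGGTGNGGC was in 6.86% (6.25 to 7.52) of shared and 7.07% (6.77 to 7.38) of naive-only windows but in 4.26% (3.92 to 4.61) of primed-only windows, and 1.93% of all. TEAD's GGAATG reached 34.0% (32.8 to 35.2), against 28.6% of naive-only, 31.4% (30.6 to 32.2) of primed-only and 25% of all. The A and T rich GATA core AGATAA was in 23.1% (22 to 24.2), against 28.1% of naive-only, 22.2% (21.5 to 22.9) of primed-only and 32.0% of all. A part of the CTCF site, AGGNGGC, was in 37.3% (36.1 to 38.6) of shared and 39.0% (38.1 to 39.8) of primed-only windows. It was in 31.1% of naive-only and 21.8% of all windows. The short SOX core ACAAAG (38.6% against 37.1% of all), AP-1 TGANTCA (17.0% against 14.8%) and CRE TGACGTCA (0.379% against 0.178%) stood closer to all windows or were rare. Cores overlap in sequence, as CRE and AP-1 share their outer letters, and none was matched to a bound protein here.

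By chromosome the density ranged from 0.997 shared windows per Mb on chromosome 21 to 3.36 on chromosomes 1 and 14, with 2.20 over all autosomes. Chromosome 1 alone held 775 windows (12.8%). Its mean RPM over the autosomal mean was 1.08 to 1.11 in all 5 libraries, while chromosome 14 stood at 1.16 and 1.14 in the naive and 0.96 to 0.98 in the primed libraries. Chromosome 19, at 1.47 per Mb, had 1.21 and 1.43 in the naive and 0.82, 1.17 and 0.95 in the primed libraries. The part of these levels in the densities was not tested.

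Shared domains lay at many genes of the pluripotency network. Among 19111 autosomal protein-coding genes 2.42% had a shared window at a promoter and 12.9% had one in the gene or within 10 kb. Of 22 general pluripotency genes 5 (22.7%, 10.1 to 43.4) had a marked promoter and 13 (59.1%, 38.7 to 76.7) a window in or near the gene, with a median gene length of 20117 bp against 27877 bp of all. *POU5F1*, the gene of OCT4, had a domain of 2000 bp (chr6:31172001-31174000) 2.32 kb upstream of its start, at 1.55 and 1.43 log2 RPM in the naive and 2.02, 1.17 and 1.41 in the primed libraries. *SOX2* had 3 domains, the widest of 1500 bp 8.33 kb downstream (chr3:181719501-181721000, 2.12 and 1.67 against 2.08, 1.21 and 1.60). *JARID2*, a subunit of Polycomb repressive complex PRC2, had 19 domains along its introns, the widest of 2000 bp (chr6:15266501-15268500, 1.48 and 1.48 against 2.33, 1.43 and 1.77). *TET1*, which oxidises methylated cytosine, had 1 of 1500 bp in an intron (chr10:68599001-68600500, 1.38 and 1.24 against 1.90, 1.33 and 1.39). *NANOG*, named after its values were seen, had a single window 1.65 kb upstream (chr12:7787501-7788000, 1.60 and 1.25 against 2.25, 1.77 and 1.66).

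Marker genes of either state had shared windows too. Of 19 naive marker genes, with a median length of 7620 bp, none had a shared promoter window (0 to 16.8%) and 2 (10.5%, 2.94 to 31.4) had one in or near the gene, *ARGFX* and *TBX3*, a share near that of all genes. The *TBX3* window (chr12:114676001-114676500) was lower in the naive (1.36 and 1.15) than in the primed libraries (2.06, 1.88 and 2.09), and that of *ARGFX* (chr3:121562001-121562500) higher (2.3 and 1.95 against 1.38, 1.34 and 1.2). The 20 primed marker genes had a median length of 16083 bp. Of them 4 promoters (20%, 8.07 to 41.6) and 8 genes (40%, 21.9 to 61.3) had a shared window, against 2.42% and 12.9% of all genes. The intervals of both lists overlapped, and their difference was not tested. *LEFTY1*, an antagonist of NODAL, had 2 domains of 2000 bp, of which that at its promoter (chr1:225889001-225891000) stood at 1.58 and 1.44 against 2.14, 1.63 and 1.64, and its neighbour *LEFTY2* had 5 domains. *ETV4*, a target of FGF signalling, had a domain of 1500 bp within an intron (chr17:43541001-43542500, 1.13 and 1.49 against 1.80, 1.31 and 1.56), and *KLF7* one of 500 bp (chr2:207143501-207144000).

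Shared domains were also found at ligands, receptors and effectors of signalling. The 30 genes of the WNT, NODAL and FGF pathways had a median length of 60901 bp, against 27877 bp of all protein-coding genes. The part of gene length in their shares was not tested. Of them 12 (40%, 24.6 to 57.7) had a shared window in or near the gene, against 12.9% of all genes. At a promoter 5 (16.7%, 7.34 to 33.6) had a shared window, against 2.42% of all. The widest were at *SMAD7*, described above, and at *TCF7L1*, a repressor of WNT target genes, where 9 domains lay along the gene and the widest of 1500 bp was 29.9 kb downstream of the start (chr2:85162501-85164000, 1.58 and 1.45 against 1.89, 1.54 and 1.93). The ligand *NODAL* had 3 domains, and the widest, of 1000 bp, stood 13.8 kb upstream at chr10:70455001-70456000 (2.01 and 1.78 against 2.04, 1.95 and 1.80). *SMAD3*, which carries its signal to the nucleus, had 5 domains, with the widest of 1000 bp at an internal promoter (chr15:67165501-67166500, 1.64 and 1.33 against 2.19, 1.90 and 1.65).

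A minority of the regulators of later lineages had a shared domain. Of 31 autosomal genes of this list 9 (29.0%, 16.1 to 46.6) had a shared window in or near the gene and 5 (16.1%, 7.09 to 32.6) at a promoter, although their median length was 6763 bp. *PAX6*, of eye and forebrain, had 4 domains, with 1500 bp at chr11:31823001-31824500 (1.62 and 1.56 against 2.03, 1.77 and 2.05), and *EOMES*, of the primitive streak, had 1000 bp 7.32 kb downstream (chr3:27714501-27715500, 1.62 and 1.28 against 2.06, 1.45 and 1.39). At *HOXD13*, of limb and hindgut, a domain of 1000 bp (chr2:176097501-176098500) stood at 1.27 and 1.52 against 1.97, 1.75 and 1.39. *GATA2*, of blood progenitors, had a window in an intron (chr3:128485001-128485500). Of 24 autosomal housekeeping genes 1 (4.17%, 0.739 to 20.2) had a marked promoter and 2 (8.33%, 2.32 to 25.8) a window in or near the gene, the actin genes *ACTB* and *ACTG1*, where all genes stood at 2.42% and 12.9%. Of 18 enzymes that add or remove H3K4 methylation and their partners, no promoter and 3 genes (16.7%, 5.84 to 39.2) were marked. These were *SETD1B*, *PAXIP1* and the demethylase *KDM5B*.

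At *ACTB* the domain covered the promoter (chr7:5531501-5532500, 1.36 and 1.27 against 1.54, 1.75 and 1.27) on a baited fragment with 12 contacts in naive and 11 in primed PSCs, 8 of them the same. The window shared by *DPPA2* and *DPPA4*, at the *DPPA2* promoter (chr3:109316501-109317000), stood at 1.89 and 1.64 in the naive and at 1.25, 1.02 and 1.05 in the primed libraries and had no contact. *LIN28B*, *TCF3* and *TFAP2C* had no shared domain within 10 kb.

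The contact lists held 76835 autosomal contacts in naive and 87075 in primed PSCs, with 38587 in both. As there is 1 list per state, no difference between lists has a replicate check. A fragment is called baited here where it is the bait of at least 1 listed contact in either state, which 15397 autosomal fragments were, so that captured promoters without a listed contact count as unbaited. Of 4393 unbaited HindIII fragments that held a shared window, 16.1% (15 to 17.2) had a promoter contact in naive PSCs, 14.5% (13.4 to 15.5) in primed PSCs and 9.31% (8.49 to 10.2) in both. Of all 792320 unbaited fragments these were 5.82%, 6.53% and 3.51%. Fragments with a naive-only window reached 13.9% (13.3 to 14.4) in naive and 10.7% (10.2 to 11.2) in primed PSCs, and those with a primed-only window 9.39% (8.78 to 10) and 12.6% (11.9 to 13.3). Contact in both states was at 6.93% (6.54 to 7.34) and 6.20% (5.70 to 6.73) of these.

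Marked fragments were longer, with a median of 4922 bp for those with a shared window against 2165 bp of all. Within 4 bins of length the shares stayed apart from those of unmarked fragments. Distance from the baits was not matched, although shared windows lay nearer to protein-coding starts than windows in general. Up to 2 kb, 18.2% (naive) and 15% (primed) of 879 fragments with a shared window had a contact, against 4.89% and 5.54% of 370254 fragments with none of the marks. Over 8 kb the shares were 14.2% and 12.5% of 1279, against 5.79% and 6.62%. Intervals of fragments with shared and with naive-only windows overlapped in naive PSCs above 2 kb, and those of shared and primed-only windows overlapped in primed PSCs in each bin.

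**Figure D4:**
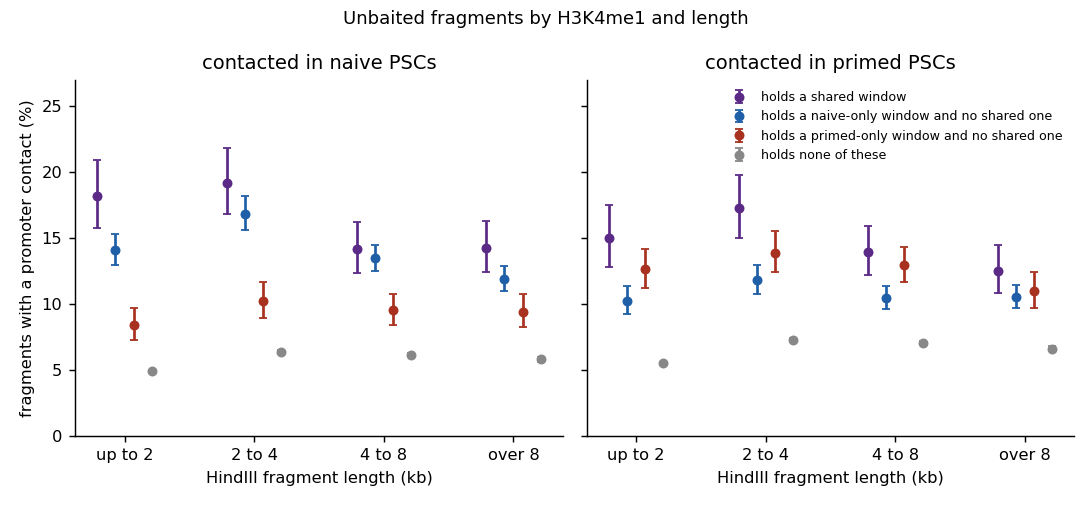
Share of unbaited HindIII fragments with a promoter contact (y axis, %) in naive (left) and primed PSCs (right), by fragment length (x axis, kb) and by the H3K4me1 windows the fragment holds. Points are shares and bars 95% Wilson intervals, and fragments with a shared window lie between 12.5% and 19.2%, those with none of the marks between 4.89% and 7.29%.

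Seen from the contacted side, 1.47% (1.34 to 1.62) of 27778 unbaited fragments contacted in both states held a shared window, against 1.62% (1.45 to 1.82) of 18305 contacted in naive PSCs alone, 0.942% (0.828 to 1.07) of 23983 contacted in primed PSCs alone and 0.479% of 722254 contacted in neither. At a CHiCAGO score of at least 10 the order of the first 3 changed, to 1.73% for both, 1.41% for naive alone and 1.51% for primed alone.

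A shared window lay on at least 1 end of 3883 naive contacts (5.05%) and 4354 primed contacts (5.00%). Of these, 52.4% (50.8 to 54.0) of the naive were also in the primed list, against 50.2% of all naive contacts, and 46.7% (45.3 to 48.2) of the primed were also in the naive list, against 44.3% of all. Of naive contacts with no shared window, those with a naive-only window were in the primed list in 42.1% (41.1 to 43.1) and those with a primed-only window in 52.1% (50.4 to 53.7). Of primed contacts with no shared window, those with a naive-only window were in the naive list in 48.7% (47.6 to 49.8) and those with a primed-only window in 39.8% (38.4 to 41.2). Naive contacts with no window of the 3 sets were in the primed list in 51.2% (50.8 to 51.6). Such primed contacts were in the naive list in 43.96% (43.6 to 44.3). Of these classes, contacts with a shared window thus had the highest share in the naive list, and those with a naive-only window in the primed list. In the naive list the interval of shared windows overlapped those of primed-only windows and of contacts with no window. In the primed list it overlapped that of naive-only windows and lay above that of contacts with no window. The median distance spanned by contacts with a shared window was 181 kb in naive and 238 kb in primed PSCs, against 238 kb and 307 kb of all. Contacts over 1 Mb numbered 37 of the 1291 in the naive list and 486 of the 5892 in the primed list, and those with a shared window on both ends 124 and 128, of which 70 were the same.

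Taken by domain, 1221 (26.7%, 25.5 to 28.0) lay on a contacted fragment in naive, 1114 (24.4%, 23.2 to 25.7) in primed PSCs and 853 (18.7%, 17.6 to 19.8) in both. A score of at least 10 left 7.01%, 8.30% and 4.95%. The 595 domains on a baited fragment made up 548 of the domains contacted in naive and 508 of those in primed PSCs, with 3562 of 4715 and 4269 of 5303 contacts summed over domains. Of the 3973 off baits, 16.9% (15.8 to 18.1) were contacted in naive, 15.3% (14.2 to 16.4) in primed PSCs and 9.87% (8.98 to 10.8) in both, and 353 kept the same contact. Among domains off baits 281 were contacted in naive and 214 in primed PSCs alone, and 3086 in neither. By width, 16.8% (15.5 to 18.2) of single windows and 21% (12.7 to 32.6) of 62 domains of 2 kb or more off baits were contacted in naive PSCs, and 15.2% (13.9 to 16.5) and 21% (12.7 to 32.6) in primed PSCs, so the intervals overlapped.

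The 10 domains with the most contacts were all on baited fragments, where the contacts of the promoter on the same fragment are counted too. The window upstream of *NUDT4* (chr12:93374001-93374500) had 43 contacts in naive and 60 in primed PSCs with 32 in both, and that at *CARMIL1*, a regulator of actin filaments (chr6:25278001-25278500), 43 and 56 with 39. At *PHLDA1* (chr12:76032501-76033000) there were 52 and 46 with 31 shared, and at *HEY2*, a repressor downstream of Notch (chr6:125745501-125746000), 56 and 37 with 35. *SRP14* (44 and 44), *BCL9* (32 and 55), *RPL30* (39 and 43) and *PDGFRA* (34 and 41) followed, with the fragment of *LINC00461* and *MIR9-2* (29 and 53). The largest imbalance was in an intron of *TBCA* (chr5:77848001-77848500), with 7 contacts in naive and 75 in primed PSCs, while its H3K4me1 was 2.18 and 1.95 in the naive and 1.94, 1.02 and 1.48 in the primed libraries.

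Off baits, the window at the *GPR162* promoter on chromosome 12 (chr12:6825501-6826000) had 15 contacts in each state, 11 the same, and 13 domains had 5 or more contacts in both. The *PLEKHG6* intron printed above (chr12:6323001-6324000, 1.85 and 1.69 against 2.15, 1.87 and 1.79) was joined to 12 baited fragments in naive and 10 in primed PSCs, with 10 the same, among them those of *CD9*, *CHD4*, *NOP2* and *GAPDH*. These were selected after their values had been seen. Of the broadest domains, the intergenic one on chromosome 1 (chr1:158101501-158104500) was joined to *KIRREL1*, which encodes an adhesion protein, in both states. The *BCL2L1* domain was joined to 2 fragments in primed PSCs alone, with *COX4I2* at a bait, and the baited *NDST1* domain to 2 in naive PSCs alone, with *MYOZ3* and *RBM22*.

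Unbaited domains reached the promoters of 960 protein-coding genes. For 352 genes (36.7%) the same domain did so in both states, for 347 (36.1%) a contact was listed in naive PSCs alone and for 252 (26.2%) in primed PSCs alone. Of 12924 baited genes these are 2.72%, 2.68% and 1.95%, where genes whose captured promoter has no contact in either list are not counted as baited. *TRIM71*, an RNA-binding repressor of differentiation, had the most, and it was picked after the values were seen, as were *BMPR1A*, *OTX2* and the other genes whose contacts are given below. The 10 domains joined to it in both states were on 9 fragments 14.8 to 50.3 kb downstream of its start, and 1 more was joined in naive and 1 in primed PSCs. Several of them shared a fragment and thus a score, and the scores were 5.23 to 7.06 in naive and 5.09 to 7.63 in primed PSCs. The domain at chr3:32842001-32843000 stood at 1.99 and 1.70 log2 RPM in the naive and 2.02, 1.77 and 2.11 in the primed libraries, which overlapped.

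Signalling genes followed. *TCF7L1* was joined to 7 of its intronic domains on 4 fragments in both states and to none in 1 state alone, with the highest score at chr2:85248501-85249000 (9.79 in naive and 8.85 in primed PSCs), 115 kb downstream of the start. *BMPR1A*, a receptor for bone morphogenetic proteins, was joined to 6 domains in both states and to 2 in primed PSCs alone, with the highest score at chr10:86868001-86869000 (13.4 and 15.1), 112 kb downstream. H3K4me1 there was 2.10 and 1.87 in the naive and 1.91, 1.45 and 1.65 in the primed libraries.

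**Figure D5:**
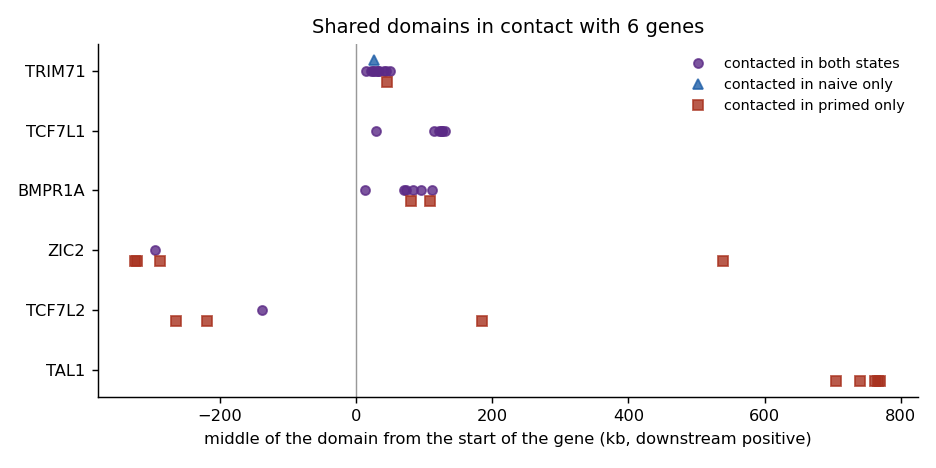
Shared domains off baits in contact with the promoters of 6 genes (rows), by the distance of their middle from the start of the gene (x axis, kb, downstream positive) and by the state in which the contact was listed. The contacts of TRIM71, TCF7L1 and BMPR1A were mostly listed in both states, whereas all 5 of TAL1 and 4 of 5 of ZIC2 were listed in primed PSCs alone.

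Several regulators were joined to domains marked in both states by contacts of 1 state. *ZIC2*, a transcription factor of primed PSCs, contacted a window 295 kb upstream (chr13:99687001-99687500, 2.3 and 1.89 against 2.47, 1.93 and 2.06) in both states with scores of 5.64 and 6.65, and 4 more domains in primed PSCs alone, with scores up to 11.3. H3K4me1 was below every primed library in both naive libraries at chr13:99657501-99658500 (1.40 and 1.19 against 2.22, 1.92 and 1.84) and chr13:99694001-99694500 (1.08 and 1.05 against 1.90, 1.88 and 1.97), and overlapped at the other two. Of 16 baited primed marker genes 4 were contacted by the same domain in both states (*ZIC2*, its neighbour *ZIC5*, *SALL2* and *LEFTY1*), 1 in naive and 3 in primed PSCs alone. Over all baited genes the shares were 2.72%, 2.68% and 1.95%. *ZIC2* and *ZIC5* share their domains and so do not count as separate loci. *OTX2*, a homeobox gene of the forebrain, was joined in primed PSCs alone to a domain 84.5 kb upstream (chr14:56894501-56895500), where H3K4me1 was 2.22 and 1.84 in the naive and 2.39, 1.19 and 1.93 in the primed libraries.

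Some lineage regulators had contacts listed in primed PSCs alone. Of 26 baited genes of this list none was joined to an unbaited shared domain in naive PSCs, where shares of 2.72% (both states) and 2.68% (naive alone) over all baited genes leave few to be seen among 26, and 6 were in primed PSCs alone, against 1.95% of all: *TAL1* of blood, *HAND2* of heart, *FOXA1* of endoderm, *PDX1* of pancreas, *NEUROG1* of sensory neurons and *HOXD13*. *TAL1* had 5 such domains on 4 fragments 705 to 770.0 kb downstream, with the highest score of 27.7 at chr1:46491501-46492000 (1.39 and 1.05 against 1.25, 1.11 and 1.53). The *HAND2* contact, 687 kb upstream, had a score of 35.0 (chr4:174217001-174217500, 1.53 and 1.25 against 1.44, 1.11 and 1.66), and the *FOXA1* contact spanned 1090.5 kb with a score of 24.3 (chr14:36504501-36505000, 1.58 and 1.25 against 1.94, 1.54 and 1.22). At these 3 windows the libraries of the states overlapped in H3K4me1, while the contact was listed in 1 state. Of the other 4 *TAL1* domains, chr1:46462001-46462500 (1.14 and 1.49 against 1.71, 2.11 and 2.05) and chr1:46466001-46466500 (1.36 and 1.15 against 1.76, 1.88 and 1.76) were lower in the naive libraries. The domain chr1:46469501-46470500 was higher there (1.91 and 1.97 against 1.29, 1.41 and 1.23), and chr1:46526501-46528000 overlapped (1.28 and 1.61 against 1.35, 1.63 and 1.65). A pair below the score of 5 is absent from a list, so the naive value of these pairs is not known. Of the WNT, NODAL and FGF genes 3 of 20 baited ones were contacted by the same domain in both states, *TCF7L1*, *TCF7L2* and *FGFR1*. Of the general pluripotency genes none of 15 was, and *REST* was joined in naive and *SOX2* in primed PSCs alone. Of 11 naive markers and 12 genes of the list of H3K4 methylation none was joined in either state.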

How the data were processed

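Per the labels and the study's methods, the authors trimmed the CUT&RUN reads with Trim Galore 0.5.0, aligned them to GRCh38 with Bowtie2 2.3.2 and deposited log2 RPM for windows of 500 bp, in which an empty window stands at 0.9 reads. PCHi-C reads were processed by the authors with HiCUP, and the deposited contacts carry a CHiCAGO score, with 2 replicates combined per state. Hi-C and ChIP-seq were not used here.

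Windows above 1 log2 RPM in all 5 libraries were merged where adjacent. The rule used every library, so no test was made, and shares carry 95% Wilson intervals. Contact ends were matched to HindIII fragments of the genome. A promoter is a transcript start and the 1000 bp upstream (GENCODE 44), and genes within 10 kb count as near. The 237008 windows without known bases were left out of context and sequence shares. The domains named are the 12 broadest (1 is not reported here), the 6 broadest without a promoter, the 10 with most contacts, for each gene list up to 4 members with the widest domain, and *ACTB*, *LIN28B*, *DPPA4*, *TCF3* and *TFAP2C*. Others are said to be chosen after their values were seen. Members and gene lists were chosen with earlier results of these data known. Scripts ran in Python 3.11.15 with tables in pandas 2.3.3, arrays in numpy 2.4.6, intervals from scipy 1.17.1 and plots from matplotlib 3.10.9. The merging, overlap and contact counting were tested on simulated data.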

Additional observations from a re-analysis of the deposited data

How the results depend on the processing

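The limit set the size of the collection. Above 0 log2 RPM there were 33142 domains, of which 10.2% reached 2 kb, 20.1% were at a promoter, and 26.3% were contacted in primed PSCs and 20.4% in both states. Unbaited fragments contacted in naive PSCs alone, in primed PSCs alone and in both then held a shared window in 8.89%, 6.25% and 8.86%. Above 2 there were 15 domains, 0% of 2 kb or more and 33.3% at a promoter, with 20.0% contacted in naive, 33.3% in primed PSCs and 20.0% in both, and the fragment shares were 0%, 0.00417% and 0.0072%. Merging across a gap of 1 window gave 4.5% of 2 kb or more. A promoter of 1000 bp on both sides gave 19.9%, and protein-coding genes alone 10.9%, against 15.8% of domains.

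At a CHiCAGO score of at least 10, 7.01% of domains were contacted in naive, 8.30% in primed PSCs and 4.95% in both, so primed PSCs had the larger share, and the fragment shares were 1.41%, 1.51% and 1.73%. The cause was not tested. Taking the fragment under the middle of each domain gave 24.7%, 22.6% and 17.0%, and asking for 2 shared windows on a fragment gave 0.486%, 0.259% and 0.421%.

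Leaving out each library in turn gave 4746 to 7541 domains, 1.53% to 3.55% of 2 kb or more, 13.7% to 17.4% at a promoter, and 24.2% to 28.0% contacted in naive, 23% to 25.4% in primed PSCs and 17.2% to 19.8% in both. The fragment shares ranged over 1.69% to 2.48%, 0.955% to 1.62% and 1.51% to 2.37%. The highest number of domains (7541) came without primed library 2, in which alone 5322 windows missed the limit, against 261 to 2738 for the other libraries. No paired analysis was possible because the results come from no test.

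The part of depth in the size of the collection was not tested. In naive library 2 the limit is 13.5 reads, and windows near it can fall on either side by counting error. The contact lists hold no pair under a score of 5, so absence from a list is not absence of contact.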
